A study of Mus musculus with 3 samples.

Results

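Integrins and laminins were followed on 3 microarrays of mPTECs, primary mouse kidney cells named here by the abbreviation of the labels. The members were the genes whose name on the array is that of an integrin alpha or beta chain or of a laminin alpha, beta or gamma chain. This gave 31 genes, 21 integrin chains (13 alpha and 8 beta) and 10 laminin chains, measured by 71 of the 41174 probes of the array and set beside 19862 named genes. The cells came from kidneys of male mice of 1 month and were measured fresh (day 0) or when they had been in culture for 1 day (day 1) or 3 days (day 3), in a medium that held 1% serum, hydrocortisone and a supplement of insulin, transferrin and selenium. For each day there was 1 sample of total RNA, labelled with Cy3 and hybridised to 1 array. No difference between days therefore has a replicate check, no test could be made, and every fold below describes these 3 arrays.

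Integrins are transmembrane receptors in which 1 alpha chain and 1 beta chain join to bind the extracellular matrix or another cell. Laminins are cross-shaped trimers of 1 alpha, 1 beta and 1 gamma chain, and they form the sheet that epithelial cells bind in the basement membrane. Mature kidney tubules rest on laminins with the alpha chain Lama5. The alpha chain Lama3 and the beta chain Lamb3 are found in the laminin that anchors the epidermis, which is bound by the integrin of Itga6 and Itgb4 in hemidesmosomes. A chain without its partner is generally held in the cell, so the ratios between days of chains that pair were compared with each other.

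The signal of a gene is given as a multiple of the 75th percentile of its array, 1184, 1509 and 1515 intensity units on days 0, 1 and 3, and a gene with several probes was read by the brightest one, judged by the mean of the days. Differences are log2 ratios of these multiples, and the count of higher and lower genes started at 4-fold, which is 2 on that scale. All 31 members were well above background on all 3 days. Repeated spots of a probe had a median SD of 0.146 in log2 signal (735 values). Where a gene had several probes, the median SD of their log2 ratios was 0.34 when day 1 was set against day 0, 0.47 when day 3 was, and 0.27 between day 3 and day 1. In a bulk sample, fewer cells of a type and less RNA per cell cannot be told apart. All 8 markers of the proximal tubule were well above background on every day, and their summed signal was 799, 140 and 13.3 times the 75th percentile on days 0, 1 and 3. The day 0 sample also carried markers of other kidney cells, with summed signals of 380 for 4 genes of the thick limb and distal tubule, 44.6 for 4 of the collecting duct, 21.7 for 6 of endothelium and 10.9 for 5 of podocytes.

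Some of the results turn on single probes, whose sequences are shown here as the array files give them, with coordinates on mm9. The first pair are the only probes of Lamb3 and Lama1, the laminin chains that lay highest and lowest on day 3 against day 0. The second pair are probes of Itga3 and Itga8 that differed little between day 3 and day 0, while the other probes of those genes differed by more than 4-fold. The probe of Lamb3 lies at chr1:195167088-195167147, on the plus strand. Those of Lama1 (chr17:68167016-68167978, plus strand), Itga3 (chr11:94915485-94917062, minus strand) and Itga8 (chr2:12077139-12081989, minus strand) cover more genome than their 60 bases and so span an intron.
Lamb3: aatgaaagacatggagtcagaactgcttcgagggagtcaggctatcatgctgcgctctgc
Lama1: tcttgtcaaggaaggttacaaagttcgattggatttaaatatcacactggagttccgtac
Itga3: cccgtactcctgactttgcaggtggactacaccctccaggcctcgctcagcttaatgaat
Itga8: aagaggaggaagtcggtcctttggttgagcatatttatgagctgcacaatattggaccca

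Against day 0, the day 1 array had 3 members at least 4-fold higher, with Itgb3 and Lamb3 among them, and 3 at least 4-fold lower, Itga4, Itgb8 and Lama1, while 16 of the 31 lay within 2-fold. Of all 18905 genes with a value in this comparison, 3.37% were higher and 5.15% lower by that much. The median log2 ratio was 0.02 for the integrin chains and 0.15 for the laminin chains, beside -0.11 for all genes. On day 3 against day 0, 6 members were at least 4-fold higher, with Itga3, Itga11, Itgb3, Itgb4 and Lamb3 among them. At the other end, 4 members were at least 4-fold lower, Itga4, Itga8, Itgb8 and Lama1, and 14 lay within 2-fold. The shares over all 19102 genes were 5.32% higher and 7.95% lower, and the medians were 0.04 for integrins, 0.04 for laminins and -0.11 for all genes. The families as a whole were thus centred near no difference, with a few chains far out on both sides. Nearest to the limit of 4-fold lay Itga4 (4.01-fold lower) inside and Itga3 (3.90-fold higher) outside on day 1, and Itgb3 (4.79-fold higher) inside and Itga5 (2.83-fold higher) outside on day 3.

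Fewer members differed between the later arrays. On day 3 against day 1, none of the 31 members was 4-fold higher or lower, against 1.62% and 1.31% of 19002 genes, and 25 lay within 2-fold. Higher by 2-fold to 4-fold were Itga1, Itga3, Itga11, Itgb4 and Lamb3, and Itga8 alone was lower by that much, with a log2 ratio of -1.60. The median ratio was 0.11 for integrins and 0.23 for laminins, beside -0.04 for all genes.

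Lamb3 differed most among the members, and its partner Lama3 did not follow it. Lamb3, the beta chain of the epidermal laminin, had a signal of 0.0383, 1.37 and 3.49 times the 75th percentile on days 0, 1 and 3. It was 35.7-fold higher on day 1 and 91.1-fold higher on day 3 than on day 0, the largest ratio of any member. Both folds rest on 1 probe, whose day 0 signal was not far above the dimmest value that the day 0 array measured over background (0.0114). With normexp background correction the log2 ratio was 3.68 on day 1 and 5.41 on day 3, against 5.16 and 6.51 as given here. Its signal was lowest in the fresh sample and higher on each later day.

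Lama3 is the alpha chain of the same trimer. Its brighter probe gave 0.640, 0.404 and 0.617, a log2 ratio of -0.66 on day 1 and of -0.05 on day 3, the last of which ran from -0.08 to 0.31 over the ways of scaling the arrays. Its other probe, which lies 126 kb upstream in the direction of the gene, gave 0.355, 0.0900 and 0.0808, with log2 ratios of -1.98 and -2.14. The gene is known to give a short and a long form from separate start sites, and no table used here assigns the probes to them. By the brighter probe, the ratio of Lama3 for day 3 over day 0 lay 94.5-fold below that of Lamb3. With the other probe of Lama3 taken as well, the log2 difference between Lama3 and Lamb3 ran from -8.65 to -6.56, so both of its probes had the alpha chain behind.

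Epidermal and basal cell markers moved beside Lamb3 by less. Of Krt5, Krt14, Krt15 and Trp63, all were well above background on every day, with a summed signal of 1.00, 2.61 and 1.92, and Krt5 alone was at least 4-fold higher on day 1, with a log2 ratio of 2.51, and had 1.74 on day 3. Mesothelial markers had a median log2 ratio of 0.58 on day 1 and 3.95 on day 3. Msln, Upk3b and Lrrn4 were well above background on every day, with a summed signal of 0.0876, 0.480 and 17.8, nearly all of it Msln on day 3 (17.4). Msln was at least 4-fold higher on both days and Upk3b on day 3, with log2 ratios on day 3 of 8.53 and 3.95. Lrrn4 was under 4-fold on both days, and Msln alone had a larger ratio than Lamb3 on day 3. The part of epidermal or mesothelial cells in the ratio of Lamb3 was not tested.

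**Figure D1:**
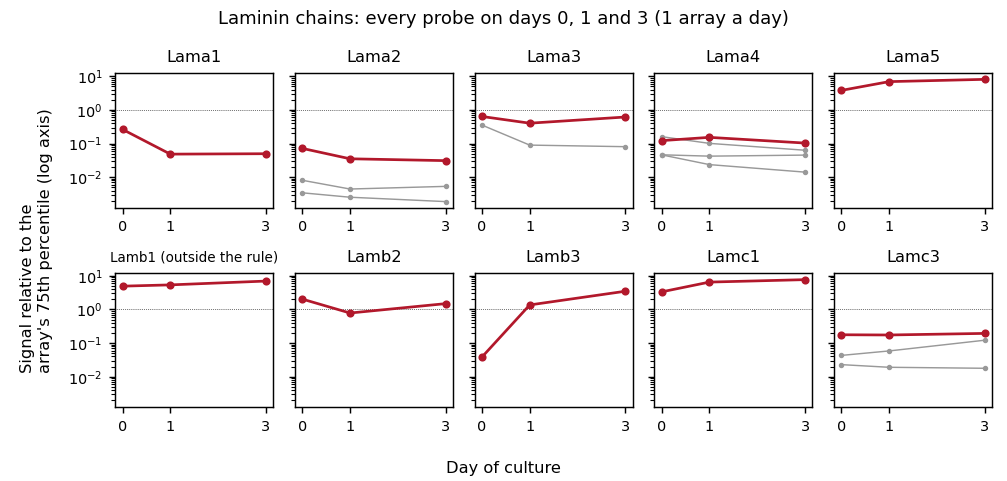
Signal of every probe of the laminin chains described here, as a multiple of the 75th percentile of the array (log axis, dotted line at 1), against the day of culture. Red lines are the probes that stand for the gene and grey lines its other probes, 1 array a day. Lamb3 stands at 0.0383, 1.37 and 3.49 on days 0, 1 and 3, Lama3 ends near where it began by its red line, and Lama1 drops before day 1.

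Among the laminin chains of the tubule, Lama5 and Lamc1 kept step. Lama5, the chief alpha chain of the mature tubule and glomerulus, had 3.81, 6.96 and 8.13, and was 1.82-fold higher on day 1 and 2.13-fold higher on day 3 than on day 0. Lamc1, the gamma chain of most laminins, was 1.95-fold and 2.31-fold higher. The difference between them was -0.10 on day 1 and -0.12 on day 3 on the log2 scale, within the spread of probes of 1 gene. Each of these chains rests on 1 probe with 1 spot, and the coordinates given for that of Lama5 cover only 15 bases.

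The beta chains of these trimers differed on day 1, and both lay within 2-fold of day 0 on day 3. Lamb2, the beta chain of the mature glomerular basement membrane, had 2.04, 0.786 and 1.49, with log2 ratios to day 0 of -1.38 on day 1 and -0.45 on day 3. Lama5 stood 4.74-fold ahead of Lamb2 on day 1 and 2.91-fold ahead on day 3. The other beta chain, Lamb1, is listed on the array under an older name outside the rule and is given here as a partner. Its signal was 4.95, 5.40 and 7.01, with log2 ratios of 0.13 and 0.50, and the first of these ran from -0.21 to 0.34 over the scalings. Lama5 and Lamb1 were within 2-fold of each other on both days.

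Lama1, the alpha chain of embryonic basement membranes that the adult mouse kidney keeps in proximal tubules and mesangium, was lower in culture. Its single probe gave 0.264 on day 0, 0.0485 on day 1 and 0.0499 on day 3, which was 5.45-fold lower on day 1 and 5.30-fold lower on day 3 than on day 0. It lay 12.2-fold below Lamc1 and 7.51-fold below Lamb1 in the day 3 comparison. All 8 proximal tubule markers and 2 of the 5 podocyte markers were at least 4-fold lower on day 3 too, beside 7.95% of all genes. So were all 4 markers of the thick limb and distal tubule, all 4 of the collecting duct and 4 of 6 of endothelium. Of the 2 genes taken for the mesangium, Ren1 and Gata3, 0 were, and their median log2 ratio was -0.94. The part of such cells in the ratio of Lama1 was not tested.

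Lama2, Lama4 and Lamc3 stayed under 4-fold. Lama2, the alpha chain of muscle and nerve, was dim, with 0.0720, 0.0353 and 0.0311 over 8 spots whose SD was 0.20, 0.32 and 0.39 on the log2 scale, and a log2 ratio of -1.21 on day 3. Lama4, an alpha chain of vessel walls, had log2 ratios of 0.32 and -0.24, both of which change sign with the scaling, beside 6 endothelial markers with a summed signal of 21.7, 11.5 and 4.25 on days 0, 1 and 3. Its other 3 probes gave -1.71 to -0.03 on day 3. Lamc3, a gamma chain of restricted distribution, had log2 ratios of -0.02 on day 1, with a sign that depends on the scaling, and 0.13 on day 3. Its other 2 probes disagreed on day 3, with 1 of them 2.83-fold higher and the other at a log2 ratio of -0.36.

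The laminin receptors were next in order. Itga3 pairs with Itgb1 into a main laminin receptor of tubule cells. Its signal was 1.15, 4.48 and 10.9 on days 0, 1 and 3, so it was 3.90-fold higher on day 1 and 9.51-fold higher on day 3. A second probe, 327 bases from the first, gave log2 ratios of 2.31 and 3.63. The intron-spanning probe printed above lies 9.50 kb upstream and gave 0.352, 0.292 and 0.443, with log2 ratios of -0.27 and 0.33. The probes of the gene thus differ in their ratios.

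Itgb4, which is known to pair only with Itga6, had 0.793, 2.82 and 7.93 with log2 ratios of 1.83 on day 1 and 3.32 on day 3. A probe shifted by 10 bases gave 1.69 and 3.34, so the measurement repeats at that place. The remaining probe, 13.7 kb upstream and dim at 0.0654, 0.0614 and 0.0940, gave -0.09 and 0.52.

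Itga6 was level while its partner was not. Its signal of 14.3, 16.4 and 14.3 gave log2 ratios of 0.20 and 0.00, both of a sign that depends on the scaling, and a second probe gave 0.14 and -0.25. Between Itga6 and Itgb4 the log2 difference was -1.63 on day 1 and -3.32 on day 3, where the beta chain was 9.98-fold ahead, and over all combinations of their probes on day 3 it ran from -3.59 to -0.52. Itgb1, the beta chain shared by most alpha chains, had 2.67, 4.81 and 6.13 over 10 spots, whose SD was 0.086, 0.128 and 0.055 on the log2 scale. It was 1.80-fold higher on day 1 and 2.30-fold higher on day 3, with log2 ratios of 1.89 and 2.59 by another probe and of 0.04 and -0.76 by a dim one. Itga7, the laminin receptor chain of muscle, lay within 2-fold on both days.

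Of 4 hemidesmosome partners, Plec, the plectin that ties Itgb4 to keratin, was at least 4-fold higher on both days, with log2 ratios of 2.07 and 2.17. Col17a1, the transmembrane collagen of the hemidesmosome, had 0.53 and 0.88, Dst had -0.90 and -1.34, and the tetraspanin Cd151, which binds Itga3 and Itga6, had 1.14 and 0.67. On day 3, Plec and Itgb4 were thus past 4-fold and the other 3 partners were not.

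**Figure D2:**
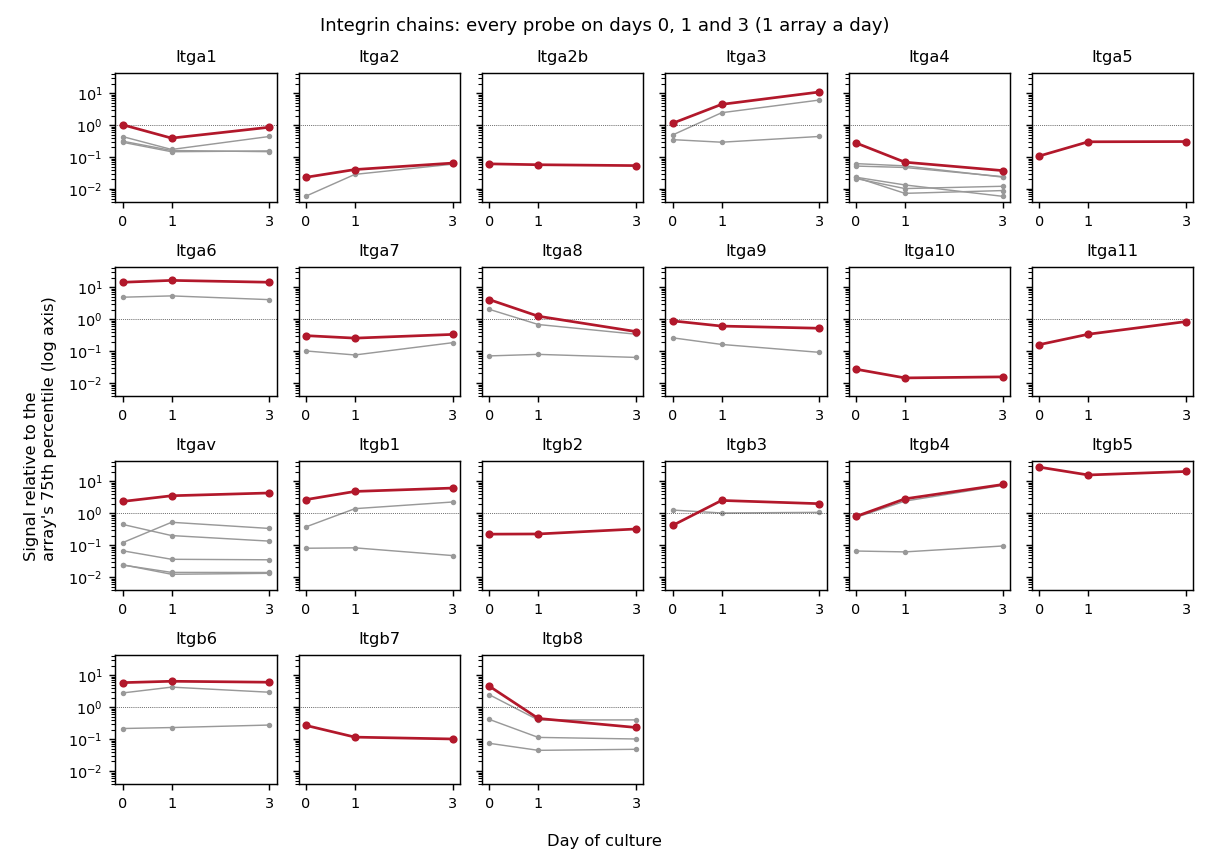
Signal of every probe of the 21 integrin chains, as a multiple of the 75th percentile of the array (log axis, dotted line at 1), against the day of culture. Red lines are the probes that stand for the gene and grey lines its other probes, 1 array a day. Itga3 and Itgb4 climb to 10.9 and 7.93 on day 3, Itga8 and Itgb8 descend to 0.409 and 0.232, and Itga6 and Itgb6 are level.

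Itgav, the alpha chain of the receptors for vitronectin and latent transforming growth factor beta, lay within 2-fold by its brightest probe while its beta chains separated. That probe had 2.34, 3.52 and 4.30, with log2 ratios of 0.59 and 0.88. Its 6 probes disagreed, running from -1.16 to 2.12 on day 1 and from -1.74 to 1.48 on day 3. On day 3, the 4 that lie 36.7 kb or more upstream of the last one were all below day 0. Itgb8, which is known to pair only with Itgav and to release active transforming growth factor beta, had 4.55 on day 0, 0.446 on day 1 and 0.232 on day 3. It was 10.2-fold lower on day 1 and 19.6-fold lower on day 3 than on day 0, the lowest ratio of any member. Its other 3 probes gave log2 ratios of -2.62, -2.04 and -0.62 on day 3, so all 4 were lower. Itgav stood 15.4-fold ahead of Itgb8 on day 1 and 36.2-fold on day 3. Over combinations of probes, the log2 difference ran from -0.43 to 5.47 on day 1 and from -1.12 to 5.77 on day 3.

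Itgb3, the beta chain of the vitronectin receptor and of platelets, was higher by its brightest probe, at 0.415, 2.51 and 1.99, or 6.05-fold on day 1 and 4.79-fold on day 3. Its other probe, 3.17 kb upstream, gave 1.25, 1.02 and 1.06, with log2 ratios of -0.30 and -0.24, and the mean of both probes was 1.15 on day 1 and 1.01 on day 3, under the limit of 4-fold. Itga2b, its platelet partner, was level at 0.0614, 0.0576 and 0.0541, with a sign that depends on the scaling. Of 5 platelet markers, all well above background on every day, the summed signal was 0.669, 0.459 and 9.18, of which Ppbp, also a chemokine, made up 8.60 on day 3. The part of platelets in the ratio of Itgb3 was not tested.

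Itgb5, another beta chain for vitronectin, had 27.7, 15.7 and 20.3, with log2 ratios of -0.82 and -0.45. Itgb6, the epithelial beta chain that also activates latent transforming growth factor beta, had 5.89, 6.51 and 6.07. Its log2 ratios of 0.14 and 0.04 change sign with the scaling, and its other 2 probes gave 0.07 and 0.36 on day 3. Itgb8 was therefore lower by more than 4-fold on both days, while Itgb6, with the same known task, was within 2-fold. Tgfb1, one of the ligands they release, had log2 ratios of 1.38 and 1.63.

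Itga5, the alpha chain of the fibronectin receptor, had 0.108, 0.302 and 0.307 and was 2.79-fold higher on day 1 and 2.83-fold higher on day 3. It stayed within 2-fold of Itgb1 on both days. Fn1, the gene of fibronectin, had 0.0595, 0.193 and 0.848, a log2 ratio of 1.70 on day 1 and 3.83 on day 3. The receptor chain was thus at its day 3 level by day 1, while its ligand was still higher on day 3 than on day 1.

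Itga8 binds nephronectin during kidney development and is kept in mesangial and smooth muscle cells of the adult. Its signal was 4.10, 1.24 and 0.409, with log2 ratios of -1.73 on day 1 and -3.33 on day 3. A second probe 172 bases away gave log2 ratios of -1.58 and -2.59. The intron-spanning probe printed above lies 48.7 kb upstream, was dim at 0.0708, 0.0791 and 0.0634, and gave 0.16 and -0.16. Npnt, the gene of nephronectin, had log2 ratios of -0.96 and 0.01. Against Itgb1, its only known partner, Itga8 lay 23.1-fold behind on day 3, with log2 differences from -5.92 to 0.61 over the probes.

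Markers of the cells that hold Itga8 were measured beside it. Ren1 and Gata3, taken for the mesangium and its neighbours, had a summed signal of 16.9, 8.64 and 9.28, and neither was 4-fold lower. Of 4 smooth muscle genes, Myh11 was at least 4-fold lower on both days and Cnn1 on day 1, and the summed signal was 13.5, 13.1 and 27.5. Their part in the ratio of Itga8 was not tested.

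The collagen receptors pair with Itgb1 and showed no common direction. Itga1, which binds basement membrane collagen, had 1.03, 0.392 and 0.861, with a log2 ratio of -1.39 on day 1 and of -0.25 on day 3, a sign that depends on the scaling. All 4 of its probes were lower on day 1, by 0.97 to 1.39 in size. Itga2, the epithelial and platelet receptor for collagen, was dim at 0.0233, 0.0407 and 0.0650 and had 0.81 and 1.48. Its other probe reached the background limit only from day 1, which gives a log2 ratio of at least 2.39 on day 3. Itga11, a receptor for fibrillar collagen in mesenchymal cells, had 0.160, 0.338 and 0.842, and was 2.12-fold higher on day 1 and 5.28-fold higher on day 3. Itga10, the receptor of cartilage, was dim and had -0.91 and -0.80. Beside Itga11, 6 fibroblast and pericyte genes, all well above background on every day, had a summed signal of 3.29, 3.80 and 2.97, and a median log2 ratio of 0.09 on day 1 and -0.35 on day 3. Col1a1 alone among them was at least 4-fold higher on day 3, with a log2 ratio of 2.83. Their part was not tested.

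Chains known from leukocytes were lower or level. Itga4, which binds Vcam1 and fibronectin, had 0.278, 0.0692 and 0.0377, and was 4.01-fold lower on day 1 and 7.36-fold lower on day 3. All 5 of its other probes were lower on day 3 as well, but they were dim, at 0.0213 to 0.0624 on day 0. Those measured on day 3 had log2 ratios from -1.41 to -0.80, under 4-fold. The ratios of 2 of them are only bounds, of -1.37 or lower and -1.81 or lower. On day 1 the measured ones ran from -0.80 to -0.15, so no measured ratio of these probes reached 4-fold on either day. Itgb7, partner of Itga4 and Itgae in lymphocytes, had 0.269, 0.116 and 0.101, with log2 ratios of -1.22 and -1.41. Itgae, a partner chain outside the rule, had 0.552, 0.211 and 0.0705 and a log2 ratio of -2.97 on day 3, though its other probe gave -0.11. Itgb2, the common beta chain of leukocytes, had 0.02 and 0.54, the first of a sign that depends on the scaling. Its partners Itgal and Itgam were within 2-fold on both days by their brightest probes. The other probe of Itgal gave log2 ratios of -1.93 and -2.01, that of Itgam gave -1.07 and 0.10. Itgax had -1.51 on day 3, and -0.67 by its other probe. Itga9, which binds tenascin and osteopontin, had -0.54 and -0.76. Vcam1, the ligand of Itga4, was higher on day 3, with a log2 ratio of 2.58.

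General leukocyte markers were also lower in sum on the later days, and macrophage markers were not. All 6 of the first were well above background on every day, with a summed signal of 2.39, 1.35 and 1.14, and their median log2 ratio was -0.51 on day 1 and -1.06 on day 3, where Cd52 was at least 4-fold lower. The 6 macrophage markers had a summed signal of 1.53, 3.29 and 2.02 and median log2 ratios of 0.02 and -0.11. Cd68 alone among them was at least 4-fold higher, with log2 ratios of 3.61 on day 1 and 2.34 on day 3. The 6 T and B cell markers had a summed signal of 1.37, 0.941 and 0.978 and median log2 ratios of -0.55 and -0.54. Of these, 0 were at least 4-fold lower on day 1 and 1 on day 3. Of 3 neutrophil markers, the 2 with a value were at least 4-fold lower on day 1, and 1 was on day 3. Over all genes the shares were 5.15% and 7.95%. Only 1 of these markers was well above background on day 1, so the other ratio of that day is a bound. The part of leukocytes in the ratios of Itga4 and Itgb7 was not tested.

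Over all chains that pair, 6 of 23 integrin pairs differed by at least 4-fold in their ratio on day 1 against day 0 and 7 of 23 on day 3 against day 0. Of 27 pairs of chains found in 1 laminin trimer, 9 differed by that much on day 1 and 8 on day 3. The median size of the log2 difference on day 3 was 1.46 for integrin pairs and 1.35 for laminin pairs. Many pairs share a chain and so are not independent: Itgb1 stands in 12 of them. How often other pairs of genes on the array differed by that much was not counted. The counts therefore do not show whether partner chains differ more or less than other genes. Between day 1 and day 3, 1 integrin pair, Itgax and Itgb2, and no laminin pair differed by 4-fold.

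**Figure D3:**
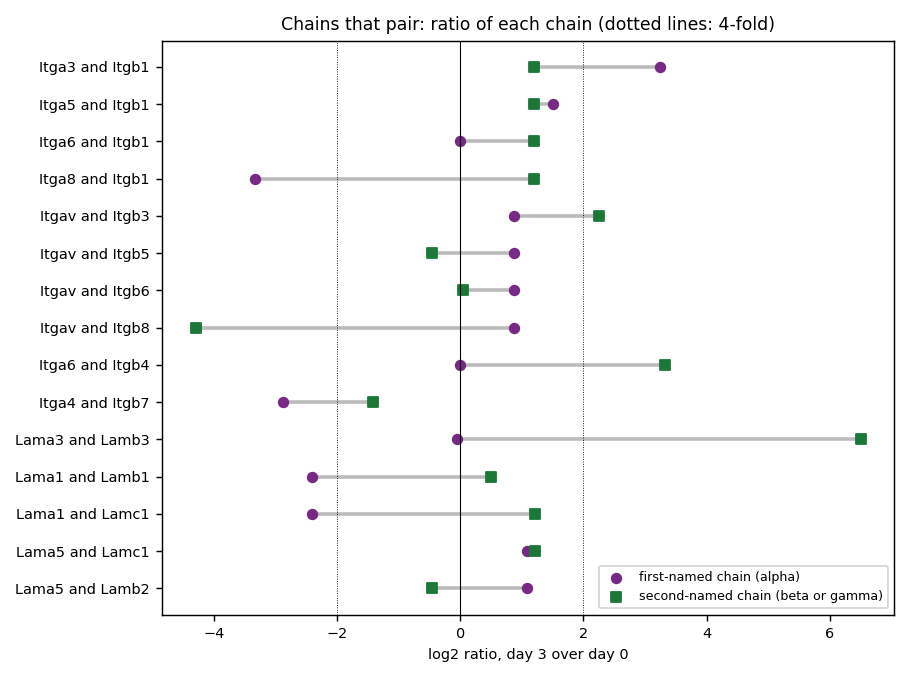
Log2 ratio for day 3 over day 0 of the chains in 15 pairs of the integrins and laminins described here, first-named chain as a purple circle and second-named chain as a green square, joined by a grey bar. Dotted lines mark 4-fold. The bars are longest for Lama3 and Lamb3, Itgav and Itgb8, and Itga8 and Itgb1, and shortest for Lama5 and Lamc1.

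In 17 of the 19 members with several probes, the brightest probe was the last in the direction of the gene by the coordinates of the files, Itga1 and Lamc3 being the exceptions. The other probes did not depart from the brightest in 1 way. On day 3 against day 0, the probes farthest upstream gave ratios smaller in size for Itga3, Itga4, Itga8, Itgb3, Itgb4 and Itgb8. By the brightest probe, these genes were all at least 4-fold higher or lower. The farthest probes gave ratios larger in size for Itgb1 (a log2 ratio of 2.59, against 1.20 by the brightest probe), Itga9 (-1.51, against -0.76), Lama3 and Lama4. For Itgav the larger ratio had the opposite sign (-1.74, against 0.88). Larger in size too were those of Itga1 (-0.90, against -0.25), Itga2 (at least 2.39, against 1.48), Itga6 (-0.25, against 0.00) and Itga7 (0.86, against 0.13). By the brightest probe, none of this second group was 4-fold higher or lower. Whether position or brightness sets these ratios was not tested.

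The genes that work with these chains were counted from lists. Beside each list stand the shares over all genes at 4-fold. These were 3.37% higher and 5.15% lower on day 1, and 5.32% higher and 7.95% lower on day 3. Of 30 genes of the adhesion complex inside the cell, 2 were at least 4-fold higher on day 1 and 4 on day 3, with medians of 0.87 and 0.84. The actin binders Actn1 and Flna had log2 ratios of 3.07 and 2.99 on day 3, and Parva, which binds integrin-linked kinase, and Zyx, the focal adhesion protein zyxin, had 2.72 and 2.46. Lower were Tns1, a tensin, at -2.41 on day 3, and Tln2, a talin, at -2.48 on day 1. The median of this list lay above that of all genes (-0.11) on both days, and that of the integrin chains was 0.02 and 0.04.

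Of 19 other basement membrane genes, none was at least 4-fold higher and 4 were lower on day 1. On day 3, Nid1, the nidogen that links laminin to collagen, and Efemp1 were higher, with 2.65 and 2.46. Fras1, a matrix protein of developing epithelia, and Tinag, an antigen of the tubular basement membrane that binds laminin, were lower on both days, with -3.31 and -2.94 on day 3. The collagen chain Col4a3 had -2.79 on day 1 and -1.43 on day 3. Agrn, which binds the laminin coiled coil, had 1.82 on day 3.

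Of 27 genes listed as integrin ligands, none was 4-fold higher on day 1, and 5 of the 26 with a value were on day 3. On that day 5 were also lower. Beside Fn1 and Vcam1, the higher ones were Thbs1, Tnc and Ccn2, with log2 ratios of 3.19, 3.02 and 2.74. The lower ones included the fibrinogen chain Fgg at -2.79. Counted with them was Nphs1, the nephrin of podocytes, at -3.57, which is a podocyte marker and not an established integrin ligand. Of 6 other laminin receptors, none was 4-fold higher on day 1 and 2 were on day 3, the syndecan Sdc1 at 2.38 and Rpsa, a ribosomal protein also known as a laminin receptor, at 2.13. Among 7 genes of processing, Pcsk5, a protease that cuts integrin alpha chains, was 4-fold lower on both days, with -2.86 and -4.55.

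**Figure D4:**
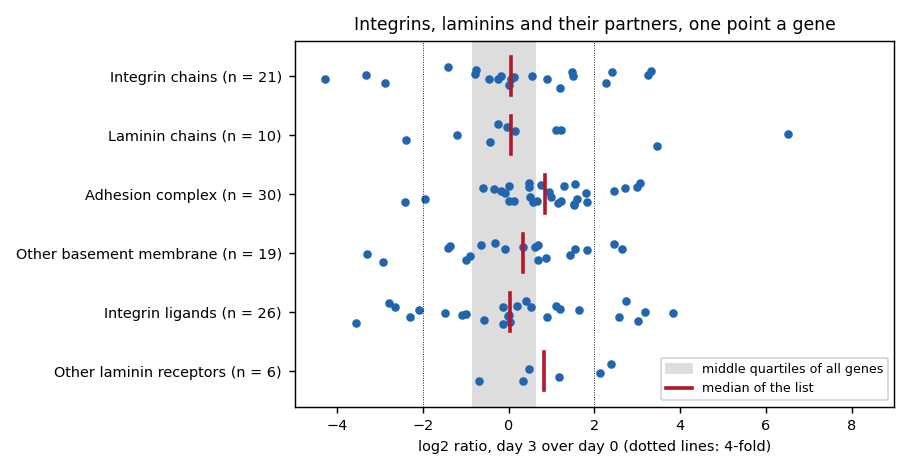
Log2 ratio for day 3 over day 0 of each gene (blue points, spread vertically for legibility) in the integrin and laminin families and in 4 lists of partner genes. Red bars are the medians, the grey band holds the middle quartiles of all genes, from -0.85 to 0.62, and dotted lines mark 4-fold. The integrin and laminin medians lie at 0.04, with single chains beyond 4-fold on both sides.

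Promoter sequences were at hand for 20 of the 31 members (23 windows of 300 bases from RefSeq, GRCm38.p6, Itgb4 not among them). The letters TGANTCA, the core motif of AP-1, which reads the same on both strands, were found in 7.81% of all 32851 windows and in 1 window each of Itga3, which has 2, and Itga9. The letters GGAATG, the TEAD motif, on either strand, were found in 14.7% of all windows and in those of Itga10, Itgb1 and Lamb3. The window of Lamb3 that holds it belongs to the second of 2 start sites. Both motifs are matches of letters only. The 250 bases before the first start site of Lamb3, the member with the largest ratio, hold neither motif and are shown on the plus strand (chr1:193301744-193301993, GRCm38.p6).
Lamb3 upstream: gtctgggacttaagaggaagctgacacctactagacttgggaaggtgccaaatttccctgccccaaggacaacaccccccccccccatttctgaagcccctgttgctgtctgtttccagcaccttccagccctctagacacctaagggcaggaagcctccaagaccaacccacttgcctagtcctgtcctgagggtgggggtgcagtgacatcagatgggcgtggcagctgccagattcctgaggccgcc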

How the data were processed

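The members and gene lists were chosen with earlier results of these data known. RNA was amplified and labelled with Cy3, per the labels' protocols. Spots were measured with Feature Extraction, in version 10.5.1.1 per the file headers and 9.1 per the submitters' processing notes. The deposited processed signal is an intensity from which the software had removed background and spatial trends, with no normalization between arrays. The other deposited columns used, each an intensity, were the mean, local background and background-subtracted signals, with flags (of other kind) for spots above background and outliers. The authors' value table is the ratio of the processed signal to the array's 75th percentile: on each array 43379 of 43379 values agreed to 0.001. Each array was scaled to the 75th percentile of its non-control spots, outlier spots (94, 102 and 85 on days 0, 1 and 3) were left out, and spots of a probe were averaged. No spot was saturated. Probes were named through the RefSeq gene table; 8429 probes stayed unnamed. A gene not well above background on 1 array gave a bound against the lowest signal well above background there (1.14%, 1.06% and 0.669% of the 75th percentile). After this scaling, the log2 shifts from day 0 were -0.22 (day 1) and -0.33 (day 3) for the median probe, 0.34 and 0.02 for the median of 13 reference genes, and -0.15 and -0.36 for 7 spike-in controls. With 1 array a day there was no test, and precision is limited by that number. Every member entered the counts, and 1 is not reported by name; partner genes were named when at least 4-fold higher or lower, at most 6 per list and comparison, or when they bind a member. The 11 alternatives were 4 scalings, normexp background (limma 3.58.1, offset 50), the background-subtracted signal without detrending, the mean of all probes, 2 filters on dim probes, kept outlier spots and the authors' table, and a 2-fold limit was also tried.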

Additional observations from a re-analysis of the deposited data

How the results depend on the processing

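No paired analysis was possible because each day has 1 sample and no 2 samples of a group share a number. Centring on the median probe moved the median of all genes by 0.22, 0.33 and 0.11 on the log2 scale (day 1 against day 0, day 3 against day 0, day 3 against day 1), quantile normalization by 0.12, 0.18 and 0.06, reference genes by -0.34, -0.02 and 0.31, and spike-in controls by 0.15, 0.36 and 0.21. On day 1 against day 0, members at least 4-fold higher numbered 5 with median centring, against 3, and those lower numbered 1 with normexp, against 3; at 2-fold there were 7 higher and 8 lower. The integrin median was then -0.32 with reference genes and -0.091 with the mean of all probes, and the laminin median -0.19 and -0.15. On day 3 against day 0, 2 members were 4-fold lower with normexp, against 4, and 11 were higher at 2-fold. The integrin median was -0.057 with normexp, -0.073 without detrending and -0.12 with the mean of all probes, where the laminin median was -0.013. On day 3 against day 1, the integrin median was -0.11 with normexp, -0.035 without detrending and 0.42 with reference genes, where the laminin median was 0.55; at 2-fold 5 were higher and 1 lower, and with quantile normalization or the mean of all probes 0 pairs were 4-fold apart, against 1. The causes were not tested.

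Lamb3 and Itgb8 on both days, and Itga3, Itga8, Itga11 and Itgb4 on day 3, stayed past 4-fold under all 11 alternatives. Not all 11 could have changed this. Every member was well above background on each day, so the filters on dim probes left these ratios as they were. The authors' table holds the same processed signal under the same scaling. Lamb3 and Itga11 have 1 probe each, so the mean of all probes is fixed for them. On day 1, Itga4 was under 4-fold in 6 of the 11 alternatives, Itgb3 with the mean of all probes and Lama1 with normexp. On day 3, Itga4 was under 4-fold with normexp and the mean of all probes, Itgb3 with the mean of all probes, and Lama1 with normexp and without detrending (-1.36 at the least). Over those alternatives Lamb3 ran from 3.68 to 5.39 on day 1 and from 5.41 to 6.97 on day 3, lowest with normexp. On day 0, Itga2, Itga10 and Lamb3 had a signal of 0.0233, 0.0271 and 0.0383, beside 0.0114 for the dimmest value measured over background.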
